A study of Mus musculus with 27 samples.

Results

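The comparison described here asks which chromatin regions changed in accessibility when the transcription factor Mef2c was delivered to mouse cardiac fibroblasts together with Gata4, set against Gata4 alone. It uses the 3 libraries of the group GM, infected with retroviruses for Gata4 and Mef2c, and the 3 libraries of the group G, infected with a retrovirus for Gata4, which are 6 of the 24 libraries with counts. All 30815 regions of the count table entered, and 20494 passed the filter on low counts and were tested. The assay was ATAC-seq: a transposase cuts and tags DNA that nucleosomes leave exposed, so more counts in a region are read as a more open region.

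The cells of every group were an immortalised line of neonatal cardiac fibroblasts of the Cd-1 strain, which expresses large T antigen and carries the reporter alpha-MHC-GFP, and they were harvested at day 2 without sorting. GM and G both received sb431542, which inhibits TGF-beta signalling, and xav939, which inhibits Wnt signalling, so Mef2c is the labelled difference between them. The other groups, with 3 libraries each, were GMT (Gata4, Mef2c and Tbx5), GT (Gata4 and Tbx5), MT (Mef2c and Tbx5), M (Mef2c) and T (Tbx5), all with the same inhibitors, and a control infected with dsRed, a red fluorescent protein, without them. M or T against this control therefore holds the factor and the inhibitors together, and their effects cannot be told apart there. A further 3 dsRed samples with the inhibitors are not analysed here. The cells form 1 line, unsorted, and a region open in fewer cells cannot be told apart from one less open in each cell. What separates the replicates, named biological by the labels, is not stated, so a p-value here measures only the spread among these samples.

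Mef2c is a MADS-box transcription factor that binds A/T-rich sites in the enhancers of muscle genes, and Gata4 is a zinc-finger factor that binds GATA sites and can bind sites in closed chromatin. Both are needed for heart development, and with the T-box factor Tbx5 they make up the GMT mixture used to turn fibroblasts into cells that resemble cardiomyocytes. The infected fibroblast starts with its own set of open enhancers, so each delivered factor can add to these or be followed by their loss.

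Total counts were 1558476, 407184 and 647066 in GM replicates 1 to 3 and 1124313, 386147 and 1544120 in G replicates 1 to 3. Replicate 2 was the shallowest library in both groups. Over tested regions, GM replicate 2 had a mean Spearman correlation of 0.815 with the control libraries and 0.805 with the other GM libraries, and G replicate 2 had 0.823 with the control and 0.802 with the other G libraries. Both therefore stood closer to the control than to their own group, and counts without them are given beside the result. The library labelled GT replicate 1 had a higher mean correlation with the G libraries than with the other GT libraries, so the counts that use GT, and calls that change, are also given without it. GMT replicate 1 had the lowest total of the 24 libraries, 241394 counts. Its mean correlation was 0.75 with the control and 0.772 with MT, against 0.707 with the other GMT libraries. The overlaps of calls with GMT versus GT were not computed without GMT replicate 1. Coordinates in mm9 serve as the names of the regions, and no gene is assigned to them.

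Where Mef2c was added to Gata4, more regions were called higher than lower. In GM versus G, 1183 regions rose and 307 fell in the quasi-likelihood test of edgeR, with p-values adjusted by Benjamini-Hochberg over all tested regions (called means an adjusted p under 0.05), which is 7.27% of those tested, 5.77% higher and 1.5% lower. The median log2 fold change was 2.16 among the higher regions and -1.71 among the lower ones, against -0.02 over all tested regions. The GM and G libraries did not overlap at 1090 (92.1%) of the higher and 245 (79.8%) of the lower regions. Over all tested regions the GM libraries lay wholly above the G libraries at 11.9% and wholly below at 8.41%. In simulated counts with 4-fold changes placed in GM, the same test called 33 of 50 rises and 18 of 50 falls. Falls were thus found less often at 4-fold, and the split of called regions need not be the split of all changes. With 2-fold changes the same test called 3 of 50 rises and 4 of 50 falls, so most changes of that size would be missed.

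The number called depended on single deep libraries and on how the spread was estimated. The count of 1490 became 662 when GM replicate 1 was left out, 597 for G replicate 1 and 358 for G replicate 3. Dropping the first replicate of all 8 groups left 328, and dropping the third left 72, all of them higher. The lower regions alone numbered 19 without G replicate 3 and 753 without G replicate 2. Without both GM replicate 2 and G replicate 2 there were 1129 higher and 345 lower. Same-numbered GM and G libraries deviated together from their group means, and with the replicate number as a block the 6 GM and G libraries alone gave 2139 higher and 1588 lower, against 895 and 219 in the same 6 libraries without the block. The blocked fit over all 8 groups gave 1164 and 312. Leaving out the library labelled GT replicate 1, which is in neither group compared, gave 1854 called regions, 1350 higher and 504 lower, among them all 1490.

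**Figure D1:**
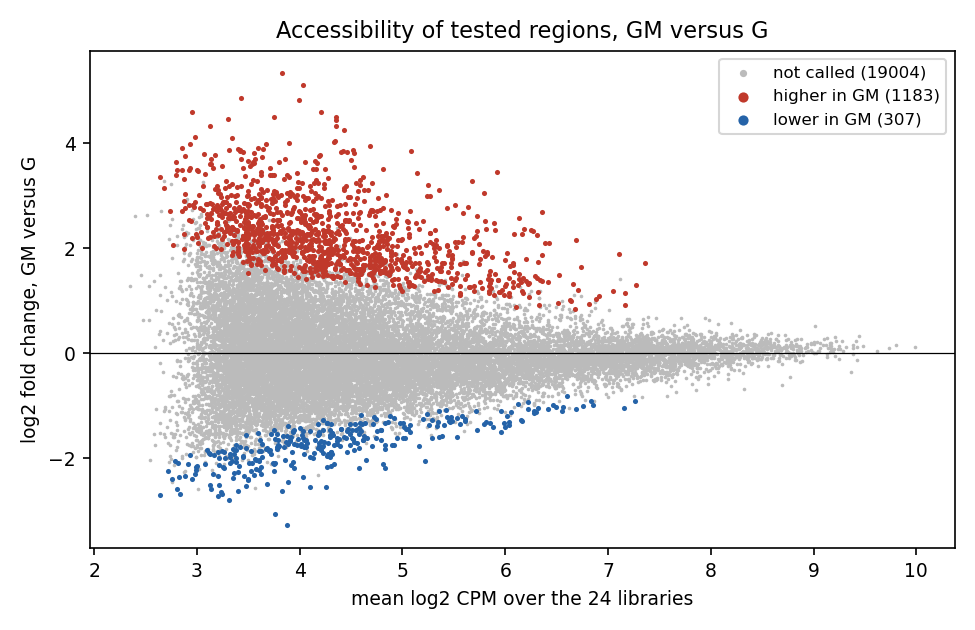
Each point is 1 of the 20494 tested regions, with its mean log2 CPM (counts relative to the TMM-scaled library size) over the 24 libraries on the x axis and its log2 fold change, GM versus G, on the y axis; red regions were called higher in GM (1183), blue ones lower (307) and grey ones not called. The called rises reach larger fold changes than the called falls, up to 5.33 against -3.27.

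The regions named next are the 10 rises and the 10 falls of greatest log2 fold change among called regions whose mean level was at or above the median of tested regions and whose GM and G libraries did not overlap. Levels are CPM, counts relative to a library size scaled by TMM, which sets libraries level over the bulk of regions; they are given for replicates 1, 2 and 3 in that order, and log2 fold changes are given ± SE. A level is compared only within 1 region across libraries.

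The top-ranked rise was chr12:33285452-33285984, at 65.1, 27.3 and 60 CPM in GM, against 2.72, 7.79 and 0.706 CPM in G. The G values rest on 3, 3 and 1 counts, so the log2 fold change of 4.25 ± 0.77 (edgeR, adjusted p = 0.000596) is imprecise. With Tbx5 present it had 40.1, 135 and 127 CPM in GMT, against 10.1, 75.5 and 13.8 CPM in GT, and 49.6, 60.6 and 18.8 CPM in MT, against 11.7, 14.4 and 19 CPM in T. GT replicate 2 and MT replicate 3 made these groups overlap. In M it had 11.7, 17.6 and 20 CPM and in the control 8.91, 0 and 1.89 CPM. It is the 1 region of the 10 where the M mean lay below the GM mean.

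The second rise had close replicates in both groups. At chr1:127472060-127472423, GM had 95.3, 76.9 and 90.0 CPM, against 6.34, 5.19 and 4.94 CPM in G (log2 fold change 3.95 ± 0.42, edgeR adjusted p = 3.92e-07). M alone had 80.2, 92.1 and 90.9 CPM there, against 8.91, 10.4 and 5.67 CPM in the control. GM and M thus overlapped, and so did G with the control.

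At chr10:122957734-122957936 the GM libraries were also close, at 80.2, 74.5 and 74.2 CPM, against 8.16, 2.6 and 3.53 CPM in G (log2 fold change 3.85 ± 0.52, edgeR adjusted p = 1.98e-05). M stood higher, at 147, 155 and 131 CPM, against 35.6, 15.6 and 15.1 CPM in the control. All GM libraries lay below all M libraries here, and all G libraries below all control libraries.

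At chr2:48254008-48254321 GM had 26.3, 54.6 and 34.7 CPM and G had 3.63, 2.6 and 1.41 CPM (log2 fold change 3.83 ± 0.55, edgeR adjusted p = 4.16e-05). The other groups with Mef2c had higher means than GM, at 68.2, 49 and 57.5 CPM in GMT, 67.3, 87.6 and 65.9 CPM in MT and 88.6, 76.5 and 77.6 CPM in M. The groups without Mef2c stayed low, at 7.58, 1.86 and 6.89 CPM in GT, 2.93, 8.97 and 5.7 CPM in T and 15.6, 10.4 and 3.78 CPM in the control. No library with Mef2c overlapped one without it at this region.

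At chr4:64237548-64237799 GM had 101, 39.7 and 56.9 CPM, against 5.44, 7.79 and 2.83 CPM in G (log2 fold change 3.82 ± 0.57, edgeR adjusted p = 6.51e-05). The log2 fold change for adding Mef2c was 3.88 ± 0.62 in MT versus T and 3.63 ± 0.58 in GMT versus GT, so the estimates on the 3 backgrounds lay within 1 SE of each other. At chr15:34809079-34809431 they were less alike, 3.5 ± 0.51 in GM versus G, 2.09 ± 0.47 in MT versus T and 2.30 ± 0.49 in GMT versus GT, but neither difference passed edgeR's test (differences of 1.41 ± 0.71 and 1.205 ± 0.735, adjusted p = 0.715 and 0.999).

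At chr18:26069730-26069989 GM had 66.4, 59.6 and 41.1 CPM, against 2.72, 15.6 and 2.12 CPM in G, where replicate 2 was the high one. M had 194, 233 and 118 CPM there, above every GM library. The remaining rises were chr17:13680847-13681136, chr1:169322463-169322665 and chrX:165232161-165232654, with log2 fold changes of 3.88, 3.85 and 3.68. All 10 rises were called in M versus control, 9 in MT versus T and 9 in GMT versus GT, the exception in both being the top-ranked one, and none in T versus control or GT versus T. At the top-ranked rise the log2 fold change was 2.49 ± 0.87 in M versus control (edgeR adjusted p = 0.0468). In T versus control it was 2.4 ± 0.91 there (edgeR adjusted p = 0.0509), so these close estimates fell on either side of the threshold. The counts in GMT versus GT and GT versus T were also 9 and 0 without the library labelled GT replicate 1. In 9 of the 10 the M mean was above the GM mean. None of the 10 calls was lost on leaving out any 1 GM or G library.

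**Figure D2:**
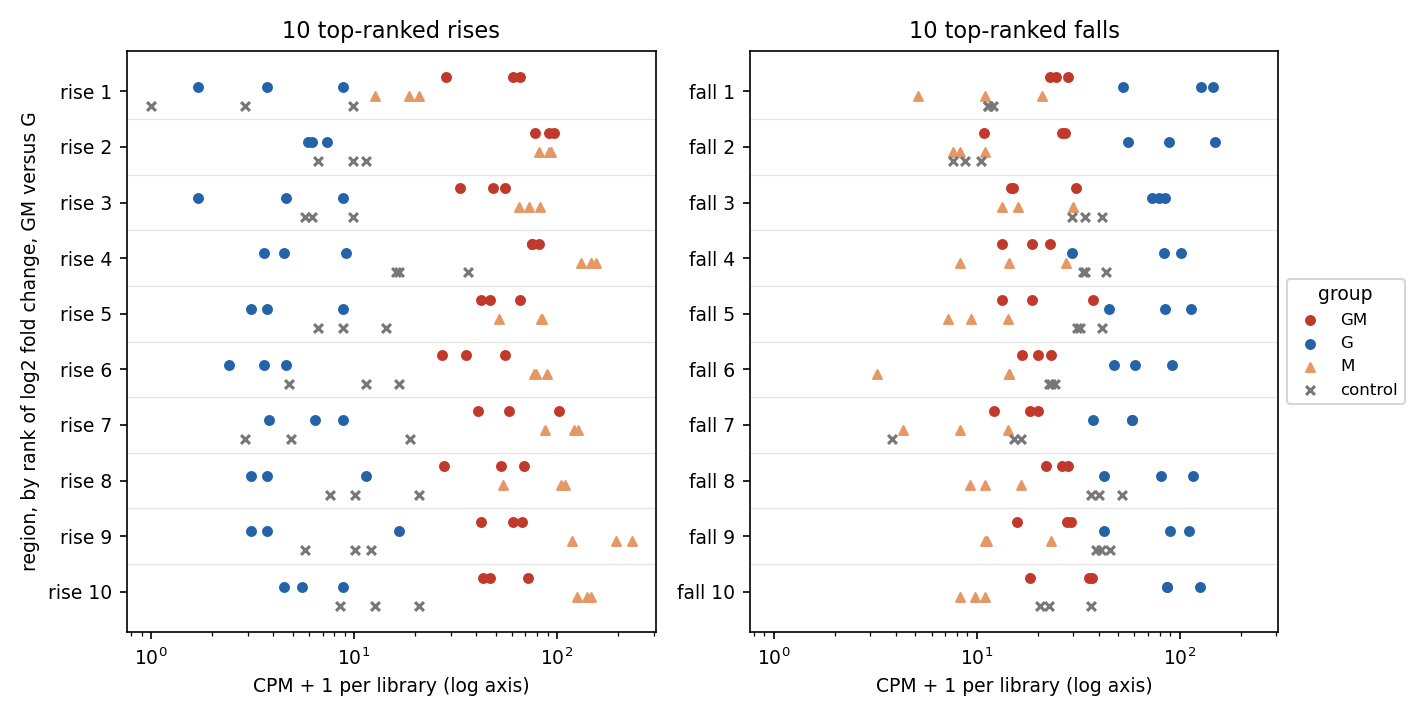
Each row is 1 named region in the order of its log2 fold change, with CPM + 1 of each library on a log axis; the groups run down each row as GM (red), G (blue), M (orange triangles) and control (grey crosses), 3 libraries each. Every GM library lies to the right of every G library among the rises and to the left among the falls, which the rule set; M is above GM in mean at 9 of the 10 rises, and the G mean is above the control mean at all 10 falls.

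The falls were smaller. At chr2:180301775-180302104, the top-ranked, GM had 23.7, 27.3 and 22.1 CPM, against 126, 51.9 and 146 CPM in G (log2 fold change -2.19 ± 0.44, edgeR adjusted p = 0.00192). Without Gata4 the region was low, at 10, 4.14 and 20 CPM in M and 11.1, 10.4 and 10.4 CPM in the control. Gata4 added to Tbx5 gave 104, 54.1 and 34.5 CPM in GT, against 2.93, 10.8 and 9.49 CPM in T. GM was thus below every G and GT library and above every M and control library.

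At chr8:63904986-63905285 GM had 26.3, 9.93 and 25.3 CPM and G had 149, 54.5 and 87.6 CPM (log2 fold change -2.17 ± 0.46, edgeR adjusted p = 0.00258), while GMT had 24.1, 121 and 92.2 CPM and GT had 105, 93.2 and 75.8 CPM. The difference between these log2 fold changes was -2.04 ± 0.61, and did not pass edgeR's test (adjusted p = 0.999).

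At chr6:36780524-36780843 GM had 13.8, 29.8 and 14.2 CPM, against 72.5, 77.9 and 83.4 CPM in G (log2 fold change -2.11 ± 0.41, edgeR adjusted p = 0.00131). In GMT versus GT the log2 fold change was -1.47 ± 0.41 there (edgeR adjusted p = 0.0239) and -1.49 ± 0.45 at chr11:67733738-67734163 (adjusted p = 0.0358). Neither call was kept without the library labelled GT replicate 1, at -1.4 ± 0.43 (adjusted p = 0.0636) and -1.14 ± 0.47 (adjusted p = 0.19). The control had an intermediate level at chr6:36780524-36780843, 33.4, 40.4 and 28.4 CPM, which overlapped GM only at GM replicate 2 and lay below every G library.

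The region chr5:77520827-77521411 was open in T, at 73.3, 73.5 and 89.3 CPM, and was the 1 named fall called higher in T versus control, where 4 others were called lower. GM had 11.2, 17.4 and 19 CPM there, against 57.1, 36.4 and 57.2 CPM in G. Of the 10 falls, 8 were called higher in GT versus T, 2 lower in GMT versus GT, 3 lower in M versus control and none in MT versus T. Without the library labelled GT replicate 1, 6 were called higher in GT versus T and none lower in GMT versus GT. Leaving out 1 GM or G library ended the call at 7 of the 10, among them chr16:4477648-4477974 in 4 of these 6 fits, and kept it at the 3 top-ranked. Of these calls, 5 ended without G replicate 1, 5 without G replicate 3, 4 without GM replicate 1 and 1 each without GM replicate 2 and GM replicate 3. The other named falls were chr17:44683831-44684037, chr4:8426122-8426327, chr3:65101177-65101382 and chr8:131044842-131045174, with log2 fold changes of -2.03, -1.84, -1.75 and -1.74.

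Over all 1183 regions higher in GM, the levels split the groups by Mef2c. The median over regions was 32.2, 27.3 and 31.6 CPM in the GM libraries, against 6.34, 10.4 and 4.94 CPM in the G libraries, which chose the regions. The other libraries entered the choice only through the filter, the scaling and the estimate of spread. In them the median was 20.1, 24.5 and 28.7 CPM in GMT, against 8.85, 5.59 and 9.19 CPM in GT. It was 29.9, 28.6 and 23.5 CPM in MT, against 5.86, 5.38 and 9.49 CPM in T, and 41.8, 40.3 and 42.1 CPM in M, against 13.4, 9.12 and 6.62 CPM in the control. No library without Mef2c reached the lowest one with it. The highest medians were those of M alone, and the M mean exceeded the GM mean at 825 (69.7%) of these regions, against 48.2% of all tested regions.

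Over the 307 regions lower in GM, the groups with Gata4 and without Mef2c were the open ones. The median was 15.1, 12.4 and 17.4 CPM in the GM libraries, against 53.5, 28.6 and 64.3 CPM in the G libraries, with G replicate 2 the lowest of its group. In the other libraries it was 12, 16.8 and 15.9 CPM in GMT, against 44.2, 29.8 and 23 CPM in GT, where the library labelled GT replicate 1 was the highest. It ran from 8.89 to 11.8 CPM in MT and from 8.79 to 11.4 CPM in T, and from 6.69 to 8.87 CPM in M, against 11.3 to 14.3 CPM in the control. The GM medians, which the choice of regions set below G, were between 12.4 and 17.4 CPM and overlapped the control.

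**Figure D3:**
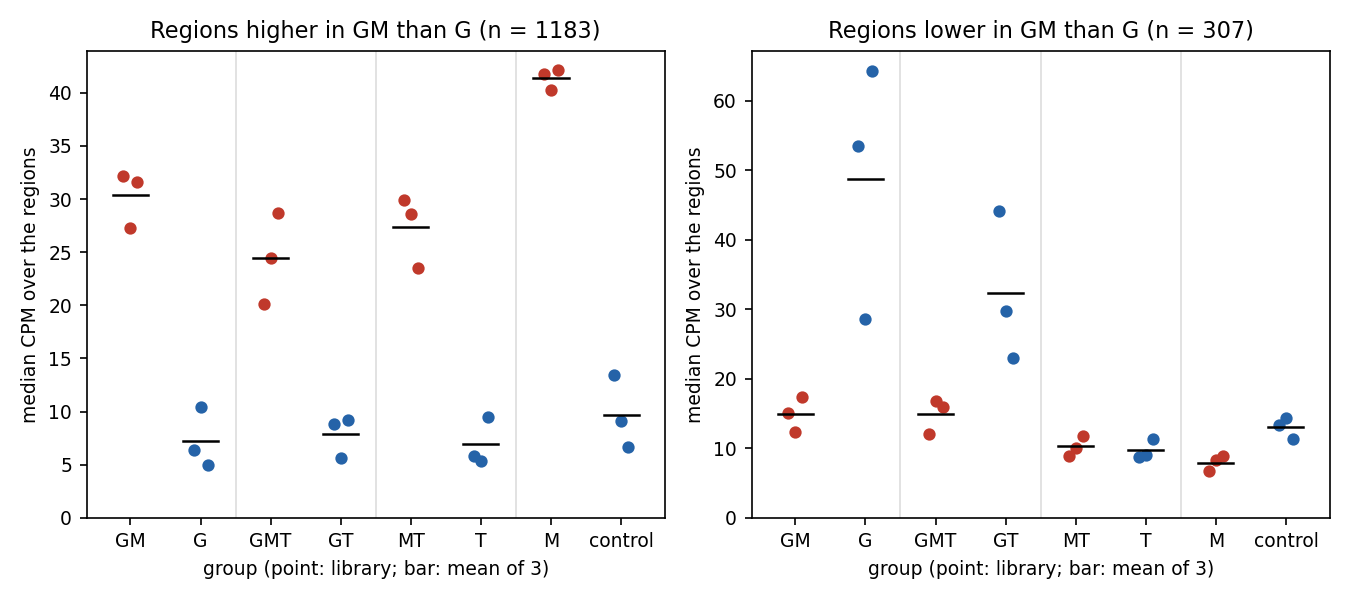
Each point is the median CPM of 1 library over the regions called higher (left, n = 1183) or lower (right, n = 307) in GM than G, with a bar for the mean of 3 libraries; red marks groups with Mef2c and blue those without. GM and G were compared to choose the regions, while the other 18 libraries entered only the filter, the scaling and the estimate of spread. Among the rises the medians of these 18 were 20.1 to 42.1 CPM with Mef2c and 5.38 to 13.4 CPM without it.

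The same regions were then read in comparisons that share no library with GM and G. Of the 1183 higher regions, 553 (46.7%) were called higher in MT versus T, where Mef2c was added to Tbx5, and none lower. These are 51.0% of all regions called higher in MT versus T, where 5.29% of tested regions were called higher and 6.46% in either direction. The median log2 fold change there was 1.72 for the 1183, against 0.06 for all tested regions, and the sign was positive at 1170 (98.9%), against 53.3%. The count of 553 was 330 without GM replicate 1, 363 without GM replicate 3, 297 without G replicate 1 and 225 without G replicate 3, which is 46.0% to 66.4% of the fewer regions higher in those fits.

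In GMT versus GT, where Mef2c was added to Gata4 and Tbx5, 551 (46.6%) were called higher and none lower, against a background of 5.68% higher and 6.96% in either direction, with a median log2 fold change of 1.65. Without the library labelled GT replicate 1, 384 (32.5%) of the 1183 were called higher, 370 of them among the 551, against a background of 3.01% in that fit, and the median was 1.72. The count of 551 was 318 without GM replicate 1, 308 without G replicate 1 and 227 without G replicate 3. These were 52.3%, 57.7% and 67% of the fewer regions higher in those fits. In M versus control, which also holds the inhibitors, 827 (69.9%) were called higher, 41.7% of that list, against a background of 9.67% higher and 16.1% in either direction. This was 426, 428 and 264 without the same libraries, or 70.1%, 80.1% and 77.9% of the fewer regions higher in those fits. In all, 375 of the 1183 (31.7%) were called higher in both MT versus T and GMT versus GT, against 2.6% of tested regions. In M versus control as well, 322 (27.2%) were called higher, against 2.0%. Without the library labelled GT replicate 1 these were 296 (25%, against 1.85% of tested regions) and 262 (22.1%, against 1.51%). Another 186 (15.7%), or 196 (16.6%) without that library, were called higher in none of these 3 comparisons. In the fit without that library, 87% of all tested regions were called higher in none of them.

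The higher regions were also read where Mef2c was on neither side. In T versus control 46 (3.89%) were called higher, against 14.5% of tested regions, and 129 (10.9%) lower, against 10.6%, with 25.1% called in either direction. In GT versus T 16 (1.35%) were called higher, against 7.41%, and 48 (4.06%) lower, against 5.27%, with 12.7% in either direction. Without the library labelled GT replicate 1 these were 6 (0.507%, against 2.55%) higher and 13 (1.1%, against 1.64%) lower. These shares were not tested against the background.

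The lower regions had a different profile. In GT versus T, where Gata4 was added to Tbx5, 144 of the 307 (46.9%) were called higher and none lower, against a background of 7.41% higher, and the median log2 fold change was 1.61. Without the library labelled GT replicate 1 these values were 59 (19.2%), a background of 2.55% and a median of 1.13. In GMT versus GT, 53 (17.3%) were called lower, against 1.28%, but 6 (1.95%) of the same 307 without that library, against 0.245%, with a median log2 fold change of -1.19 with it and -0.73 without it. Leaving out GM replicate 1 or 2 made the count of 53 into 8 or 28, and leaving out G replicate 1, 2 or 3 made it 6, 152 or 3. It was 94 without replicate 2 of both groups, and the number of lower regions changed with it in each case. As a share of the lower regions of each fit it was 9.52% to 27.2%.

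The lower regions were then read in comparisons without Gata4. In MT versus T 7 (2.28%) were called lower, against a background of 1.16%, and the median log2 fold change was -0.21. That count lay between 0 without G replicate 3 and 17 without G replicate 2, with 1, 4 and 2 without GM replicate 1, GM replicate 2 and G replicate 1. As a share of the lower regions of each fit without 1 GM or G library it was 0% to 3.18%. In M versus control 58 (18.9%) were called lower, against 6.47%, with a median of -0.71. Leaving out GM replicate 1 or 2 made this count 3 or 33, and leaving out G replicate 1, 2 or 3 made it 13, 125 or 0. In the same order these were 5.56%, 23.4%, 20.6%, 16.6% and 0% of the lower regions of those fits.

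**Figure D4:**
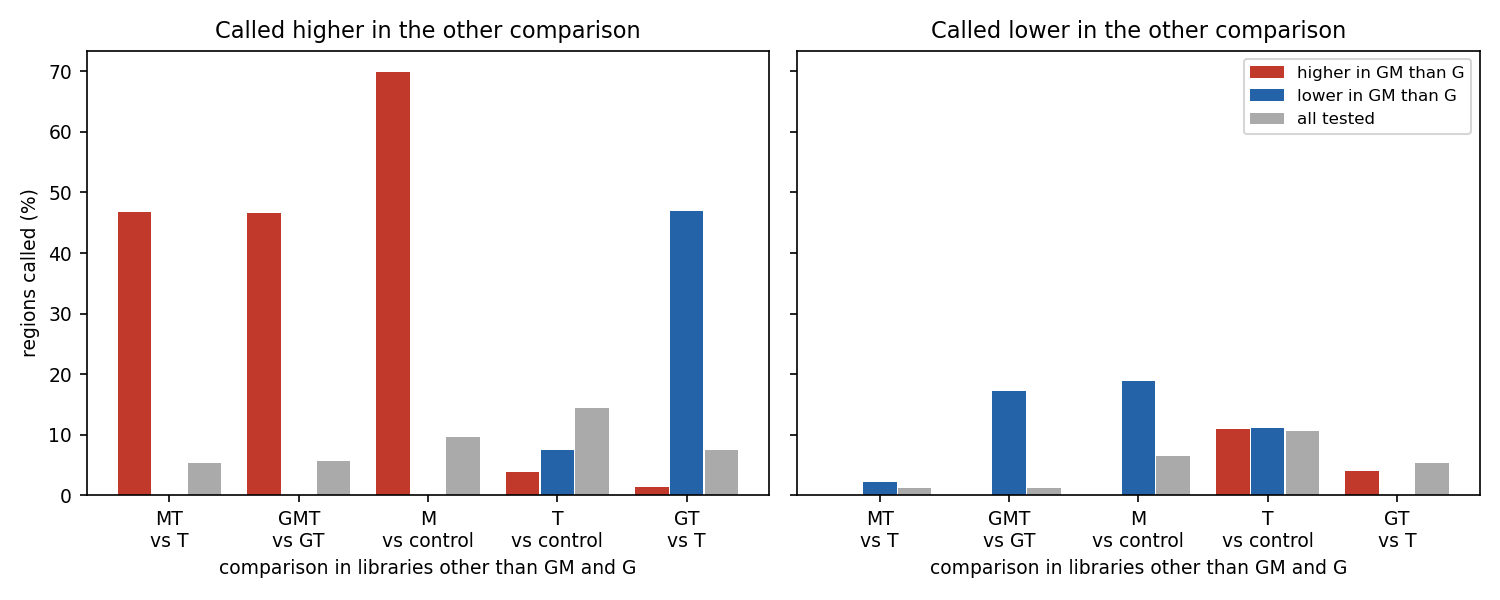
Bars give the share (%) of regions higher in GM than G (red), lower in GM than G (blue) and all tested (grey) that were called higher (left) or lower (right) in 5 comparisons of libraries other than GM and G. The rises recur as rises in the 3 comparisons that add Mef2c (46.7%, 46.6% and 69.9%), and 46.9% of the falls are called higher in GT versus T; without the library labelled GT replicate 1 the shares are 32.5% in GMT versus GT and 19.2% in GT versus T.

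Whether Mef2c acted differently on the background of Gata4 was tested directly. The difference between GM versus G and MT versus T was called at 0 of 20494 regions by edgeR's quasi-likelihood test, with 1441 at an unadjusted p under 0.05 and a lowest adjusted p of 0.678; DESeq2 also called 0, with 1264 unadjusted. The difference between GM versus G and GMT versus GT was called at 0 regions as well, with 749 unadjusted in edgeR and 635 in DESeq2, also with 0 called. This does not show that the effects were alike: the median 95% interval of a region's log2 difference was ± 1.5 for the first and ± 1.43 for the second. In simulated counts with 4-fold differences, the first test called 8 of 50 raised and 7 of 50 lowered regions. The second called 7 of 50 and 3 of 50, so most differences of that size would be missed.

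A list called between groups outside these additions gave a further view, although all libraries entered the filter, the scaling and the estimate of spread. The 1982 regions called higher in M versus control had a median log2 fold change of 1.54 (quartiles 0.96 and 2.20) in GM versus G, 1.62 (1.00 and 2.20) in MT versus T and 1.36 (0.76 and 1.94) in GMT versus GT, the last 1.49 without the library labelled GT replicate 1. The regions called higher numbered 827 (41.7%, against 5.77% of all tested), 699 (35.3%, against 5.29%) and 639 (32.2%, against 5.68%), and none was called lower in any of the 3. The last was 430 (21.7%, against 3.01%) without that library. The 1326 regions called lower in M versus control had medians nearer to 0 in these additions, where both sides had the inhibitors, at -0.44, -0.08 and -0.42. Of them 58 (4.37%, against 1.5% of all tested), 18 (1.36%, against 1.16%) and 45 (3.39%, against 1.28%) were called lower, so the share in MT versus T was near the background. In GMT versus GT it was 4 (0.302%, against 0.245%) without the library labelled GT replicate 1. Across all 20494 regions the log2 fold changes of GM versus G had a Pearson correlation of 0.546 with those of MT versus T, 0.667 with GMT versus GT (0.623 without the library labelled GT replicate 1) and 0.596 with M versus control. These are descriptions over regions of 1 table, which share the model and their depth.

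Each library was also scored by lists called between other groups. The 1085 regions called higher in MT versus T took 4.6%, 4.33% and 4.68% of the counts of the GM libraries, against 1.75%, 2.18% and 1.76% of the G libraries. M alone had 6.23%, 5.82% and 6.01%, and the control 2.46%, 2.36% and 1.98%. Every GM library was above every G library and below every M library, and the exact two-sided permutation test of GM against G gave p = 0.1, the smallest that 3 against 3 libraries allow. Within same-numbered pairs GM was higher in 3 of 3 (exact paired permutation p = 0.25, the smallest that 3 pairs allow). GM replicate 2 was the lowest and G replicate 2 the highest of its group.

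The 1518 regions called higher in GT versus T took 6.17%, 5.44% and 7.51% of the GM libraries, against 9.73%, 6.51% and 9.84% of the G libraries. M had 3.43%, 2.98% and 3.69%, and the control 4.39%, 4.66% and 4.05%. GM replicate 3 was above G replicate 2, so the groups overlapped (GM mean 6.37 ± 1.05%, G mean 8.69 ± 1.89%, SD, n = 3 each, exact two-sided permutation p = 0.2), although every GM library was above every control library. With the list taken without the library labelled GT replicate 1 (552 regions) the means were 2.28 ± 0.46% in GM and 3.22 ± 0.79% in G (exact permutation p = 0.2). Within same-numbered pairs GM was lower in 3 of 3 for both lists, with mean differences of -2.32 ± 1.25 and -0.94 ± 0.45 percentage points (SD, exact paired permutation p = 0.25 for each). Wilson 95% intervals of single shares were at most ± 0.0778 percentage points and cover counting error only.

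**Figure D5:**
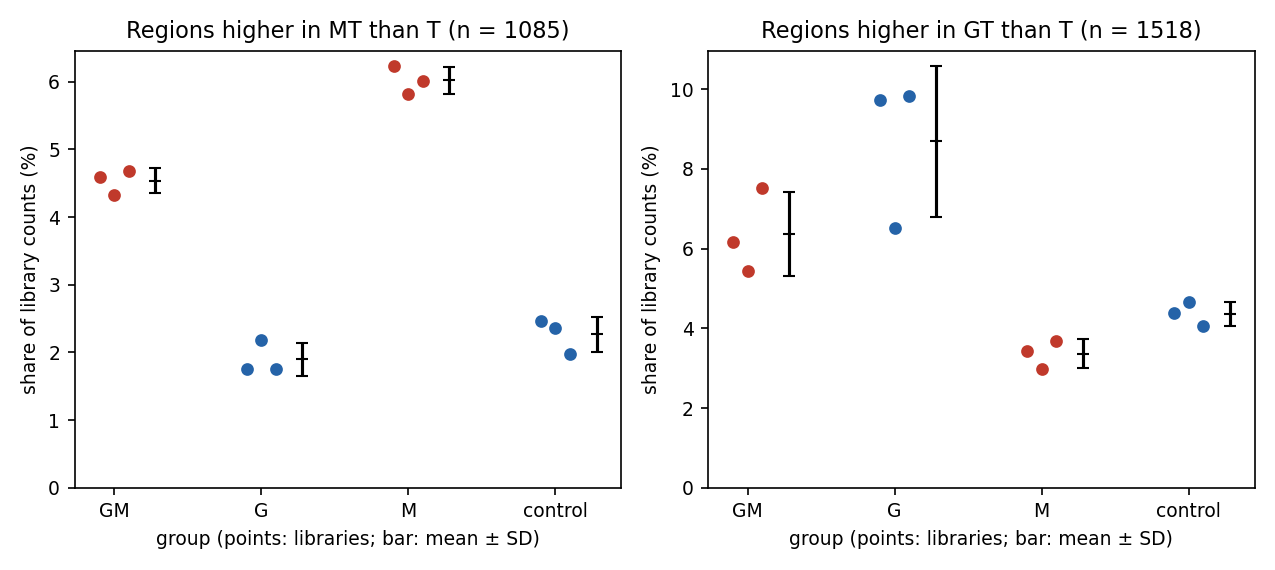
Points give the share (%) of each library's counts in regions called higher in MT versus T (left, n = 1085) or in GT versus T (right, n = 1518), with the mean ± SD of 3 libraries beside them; red marks groups with Mef2c. The GM mean lies between those of M and G in both panels; the GM libraries span 4.33% to 4.68% on the left, apart from G, and 5.44% to 7.51% on the right, where they overlap G.

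The dsRed control, which had neither factors nor inhibitors, had low levels at many of these regions. Of the 1183 higher regions, 245 (20.7%) had a control mean under 5 CPM, against 11.4% of tested regions, and 89 (7.52%) had 50 CPM or more, against 26.3%. Their median level was 9.34 CPM in the control, against 18.9 CPM for all tested regions. Of the 307 lower regions, 44 (14.3%) were under 5 CPM and 39 (12.7%) at 50 CPM or more, with a median of 13.8 CPM. The median log2 fold change of the called rises was 2.66 below 5 CPM and 1.43 from 50 CPM. For the called falls it was -2.11 and -1.12, and over all tested regions 0.239 and -0.0477. A region with few counts needs a larger fold change to be called. The choice of regions can therefore set this gradient, and it does not show a stronger effect at low control levels.

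The higher regions had a median width of 302 bp and the lower ones of 275 bp, against 261 bp for all tested regions, and 119 (10.1%) of the higher ones were 500 bp or wider, against 6.66%. Called rises were spread over all chromosomes with at least 100 tested regions, from 4.17% of those on chromosome 11 to 10.7% (37 of 346) on chromosome X. Called falls ran from 0.578% (2 of 346) on chromosome X to 2.19% (17 of 777) on chromosome 14.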

How the data were processed

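The values are raw counts in chromatin regions, deposited by the authors as 1 table, with Bowtie2, Picard, featureCounts and mm9 named in the submitters' processing notes; versions, read filters, the way regions were defined and the unit counted (reads or fragments) are not given in the sources used here. The tools were edgeR 4.0.16 with limma 3.58.1 under R 4.3.3, and DESeq2 1.42.0 as an alternative. filterByExpr (minimum count 10, minimum total 15) kept 20494 of 30815 regions (66.5%), TMM set the scaling, and 1 model held all 8 groups, with 16 residual degrees of freedom; the square root of the common dispersion was 0.29. The SE is the log2 fold change divided by the square root of F. Named regions followed the rule stated in the text. The members, lists and comparisons were chosen with earlier results of these data known. Same-numbered GM and G libraries deviated together (correlations of 0.436, 0.464 and 0.302 for numbers 1 to 3, against -0.36 to 0.0966 for other pairings). Deviations cancel within a group, so positive values for the same numbers lower the others. Replicate 2 was also the shallowest library of both groups. Whether the numbers mark a true pairing was not tested. The numbers, which the titles give, were taken from this pattern to pair the libraries in the blocked fits and in the paired tests of shares. The main model held the group alone and did not use this pairing. The scripts were tested on simulated data. Alternatives were other scalings, filters, DESeq2, fewer libraries, the block, a minimum fold and a stricter adjusted p. The annotation at hand is of another build, so genes, motifs and sequences were not used.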

Additional observations from a re-analysis of the deposited data

How the results depend on the processing

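The direction of all 20 named regions was the same under every alternative run, and each kept its call with total counts, RLE or loess scaling, DESeq2, no filter, a minimum count of 20, the 6 libraries alone and the replicate block; 3 calls were lost at a minimum fold, 7 on dropping every replicate 1 and 12 on dropping every replicate 3. The 1490 regions called in GM versus G numbered 1399 to 1552 under the other scalings and 1299 by DESeq2. They numbered 685 when the test required a 1.5-fold change, and 560 at a threshold of 0.01. With the replicate block the count was 3727 in the 6 GM and G libraries, 4345 with the 6 libraries tested on the regions kept with all 24 (chosen after seeing the data), and 1476 over 8 groups; the block changed no call of a named region. Leaving out 1 library gave 358 to 2157, and 1 replicate number of all groups 328, 1038 and 72. Both differences between additions of Mef2c stayed at 0 under every alternative. Regions lower in GM and also called lower in MT versus T, 7, were 11 with loess offsets, 12 without the library labelled GT replicate 1, 3 with the replicate block over 8 groups and 0 to 17 without 1 library. Those also lower in GMT versus GT, 53, were 126 with loess offsets, 8 of the 504 lower regions of the fit without that library, 94 without both replicates 2 (chosen after seeing the data) and 3 to 152 without 1 library. Those also lower in M versus control, 58, were 106 without that library and 0 to 125 without 1 GM or G library. The higher regions also higher in MT versus T, 553, in GMT versus GT, 551, and in M versus control, 827, were 225 to 589, 227 to 576 and 264 to 902 without 1 GM or G library, and those shared with MT versus T and with M versus control were 633 and 937 without the library labelled GT replicate 1. Of the regions higher in each fit without 1 GM or G library, these were 42% to 66.4%, 41% to 67% and 64.2% to 80.1%. For the lower regions, in the same order of comparisons, the shares were 0% to 3.18%, 9.52% to 22.7% and 0% to 23.4%. The cause was not tested. Smaller changes could be missed: the median 95% interval of a region's log2 fold change, GM versus G, was ± 0.998. That interval holds counting error and the spread among replicates together.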

Other observations

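Some of the called regions lay near each other. Of the 1183 higher regions, 214 (18.1%) had another within 50 kb, in 102 runs of 2 to 4. Of the 307 lower regions 30 (9.77%) did, in 15 runs of 2. The share for equally long lists of tested regions was not computed. A longer list also leaves less distance between its members. These shares therefore do not show clustering and cannot be compared with each other. The longest run, chr16:87556512-87645073, held 4 called rises among 8 tested regions, with log2 fold changes from 1.35 to 3.05. At chr10:107367268-107377795 all 3 tested regions were called higher, with log2 fold changes from 2.14 to 3.62, and at chrX:154174555-154186410 all 3 as well, from 2.06 to 2.84. At chr17:44683831-44685458 both tested regions were called lower, at -2.25 and -2.03. These runs were chosen after their values were seen and were not tested as groups.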
